A study of Mus musculus and Rattus norvegicus with 43 samples.

Results

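Isl1, Lhx8, Gbx2, Zic4, Zic1, Lhx6 and Nkx2-1 encode transcription factors that act in the lineage from which the cholinergic interneurons of the striatum arise. They were taken by gene symbol from a mouse count table of 54532 genes, and all 7 were found and passed the filter on low counts that left 19413 genes. Chat, which encodes the enzyme that makes acetylcholine, was measured beside them as a gene of the finished cholinergic cell. In the striatum of mice injected with miRNAs against Taf1, 0 of the 7 factors and 0 of all 19413 genes tested (0%) were called in any of the 3 comparisons with all libraries. Chat did not pass either, at mean levels of 28.3 CPM in CN mice, 22.1 CPM in N mice and 29.5 CPM in control mice, where CPM is counts scaled by TMM to a common library total and CN and N are the Taf1 miRNA groups described next.

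The striatum of one hemisphere was sequenced from C57BL/6 mice aged 4 months that had been injected on postnatal day 0. Of these, 5 had received the miRNA labelled C/N-TAF (here CN), 8 the miRNA labelled N-TAF (here N) and 8 a control miRNA. The Taf1 protein is a core part of TFIID, which helps place RNA polymerase at promoters, and its N-TAF form is found in neurons. The sources used here name neither the vector, nor the promoter that drove the miRNA, nor the cells that received it. A second label ends in the same suffix for all 22 mice, including the 13 labelled with a Taf1 miRNA, so that groups rest on the injection label alone. The injection label of 1 further mouse states no miRNA, and that library was compared with none.

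As background, striatal cholinergic interneurons are born in the ventral forebrain, chiefly in the medial ganglionic eminence and the neighbouring preoptic area and septum. Nkx2-1 sets the identity of the eminence and lies upstream of the LIM-homeodomain genes Lhx6 and Lhx8. Lhx8 and Isl1 together drive the cholinergic program, whereas Lhx6 is best known for the GABAergic interneurons of the same origin. Gbx2 is needed for the proper development of a set of these cholinergic neurons in mouse. Zic1 and Zic4, zinc-finger factors that lie head to head in the genome, are expressed in the septal part of this origin and in meninges, cerebellum and thalamus.

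Library totals ran from 24.9 to 35.6 M (mega) counts. CN library 2 stood apart from the other libraries, with a correlation of -0.528 (Spearman) between exon length and deviation from the mean of all libraries over 15480 genes, against -0.304 to 0.42 in the others, so log2 fold changes of CN mice are given with and without it. Taf1, the targeted gene, was at 50.6 CPM in that library and at 83.7 to 105 CPM in the other 20 libraries, and these gene counts do not separate its isoforms. The tissue carried the defining genes of striatum, with Ppp1r1b at 1440 to 2780 CPM in CN mice, 1490 to 2130 CPM in N mice and 1930 to 2150 CPM in control mice. Of 9 markers of striatal projection neurons, 9 had negative log2 fold changes in N against control, with a median of -0.20. With all libraries 0 of them were called, beside 0% of all genes. Without CN library 2, 1 was called lower, beside 0.667% of all genes. In bulk tissue, fewer cells of a type and less RNA per cell cannot be told apart.

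The promoters of the factors differ widely in base composition, which is shown for the pair that drives the cholinergic program, for the upstream factor and for Chat. Each run is the RefSeq window on GRCm38.p6 from 250 bases before to 50 bases after the annotated start, written 5′ to 3′ along the gene's own strand, with each CpG in capitals. All of these windows lie on the minus strand. They are Isl1 at chr13:116309639-116309938, Lhx8 at chr3:154330511-154330810, Nkx2-1 at chr12:56536859-56537158 and Chat at chr14:32465860-32466159.
Isl1: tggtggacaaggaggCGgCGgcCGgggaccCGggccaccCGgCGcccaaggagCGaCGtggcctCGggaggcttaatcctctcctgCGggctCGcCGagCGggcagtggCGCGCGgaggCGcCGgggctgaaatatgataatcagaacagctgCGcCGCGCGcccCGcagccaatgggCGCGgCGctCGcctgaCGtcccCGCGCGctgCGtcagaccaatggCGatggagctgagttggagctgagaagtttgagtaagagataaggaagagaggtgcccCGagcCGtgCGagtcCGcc
Lhx8: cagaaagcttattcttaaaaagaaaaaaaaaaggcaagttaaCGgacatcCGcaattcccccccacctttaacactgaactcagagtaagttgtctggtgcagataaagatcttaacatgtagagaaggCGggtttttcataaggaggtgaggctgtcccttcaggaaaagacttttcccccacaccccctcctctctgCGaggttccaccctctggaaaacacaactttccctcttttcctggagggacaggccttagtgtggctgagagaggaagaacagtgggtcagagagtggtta
Nkx2-1: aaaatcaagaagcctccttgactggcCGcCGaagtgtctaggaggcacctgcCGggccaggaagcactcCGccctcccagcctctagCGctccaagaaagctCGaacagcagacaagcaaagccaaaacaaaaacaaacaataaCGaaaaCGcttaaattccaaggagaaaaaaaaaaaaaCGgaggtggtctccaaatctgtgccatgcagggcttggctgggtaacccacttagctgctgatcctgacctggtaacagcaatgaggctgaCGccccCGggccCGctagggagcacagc
Chat: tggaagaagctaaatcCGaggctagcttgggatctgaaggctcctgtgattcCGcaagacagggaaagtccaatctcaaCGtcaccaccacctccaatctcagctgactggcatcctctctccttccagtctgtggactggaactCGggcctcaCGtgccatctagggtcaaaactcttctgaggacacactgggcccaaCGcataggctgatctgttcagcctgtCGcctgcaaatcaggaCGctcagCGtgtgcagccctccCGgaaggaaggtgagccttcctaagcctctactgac

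The Isl1 window held 37 CpG at 69% GC, whereas that of Lhx8, its partner, held 4 CpG at 47% GC. The Nkx2-1 window held 12 CpG at 53.7% GC and the Chat window 10 CpG at 55.7% GC. Over all 32851 promoter windows the medians were 7 CpG and 52.7% GC, so that Isl1 lay far above the median, Lhx8 below it, and Nkx2-1 and Chat slightly above it. Among the factors not shown, Zic1 had 31 CpG, Gbx2 27 and Zic4 8, and the 3 annotated starts of Lhx6 had 16, 17 and 11. The homeodomain core TAATTA occurred in 0 of the 10 windows of the factors and Chat, against 5.29% of all windows. CAAGTG, a core bound by Nkx2-1, occurred on either strand in 2 of them (Gbx2 and Zic4), against 13.6% of all windows. CAGCAGG, a Zic core, occurred in 0, against 10.5%, and TATAAA, the TATA box core, in 1, against 13.6%. That match, in the third Lhx6 window, is on the strand opposite to the gene. All 4 motifs were searched on both strands and none contains another, and a match is a description of the window and not a bound site.

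Mean levels per exon length in control mice placed Chat above every factor. In control mice, mean CPM per kb of exon was 6.28 ± 0.392 for Chat, 4.43 ± 0.352 for Isl1, 4.36 ± 0.287 for Lhx6 and 4.33 ± 0.763 for Zic1 (SD, n = 8). Lhx8 followed at 3.42 ± 0.408 and Nkx2-1 at 2.88 ± 0.264, and Gbx2 and Zic4 lay far lower at 0.266 ± 0.0673 and 0.253 ± 0.0478 CPM per kb. Neighbours in this order overlapped in their control libraries, except that every Chat value lay above every Isl1 value and every Nkx2-1 value above every Gbx2 value. Beyond neighbours, the highest control value of Zic1, 5.73 CPM per kb, exceeded the lowest of Chat, 5.5 CPM per kb. In N library 3, Chat at 3.15 CPM per kb lay below Isl1 at 4.45, Lhx6 at 4.7 and Nkx2-1 at 4.59. These values depend on the lengths used, and the exons of Zic4 cover 10.3 kb in the GENCODE annotation, against 5.69 kb for Zic1.

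**Figure D1:**
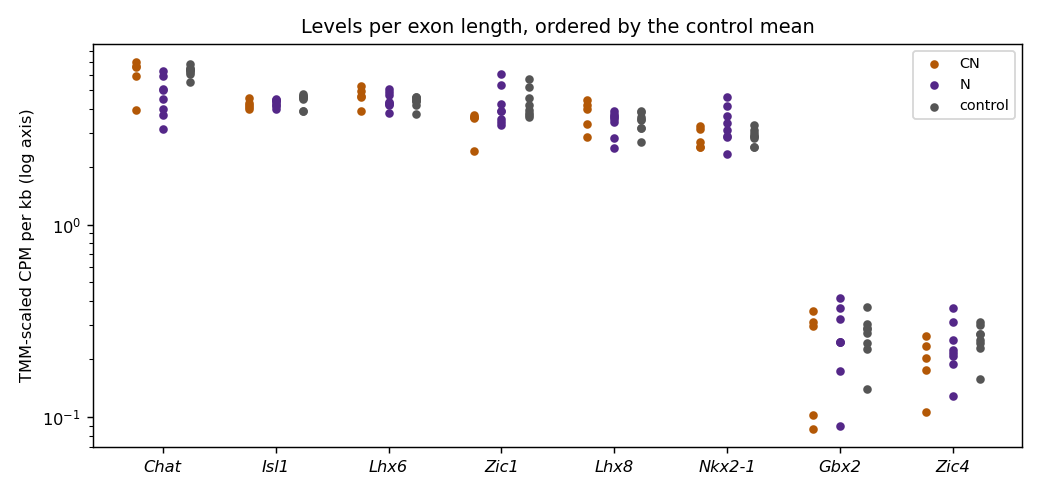
Level per exon length of Chat and the 7 factors in each mouse library, in TMM-scaled CPM per kb of exon on a log axis, with genes ordered by the control mean and each point a library. Gbx2 and Zic4 lie well below the other 5 factors in CN, N and control mice, and the N points of Chat reach below its control points.

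Nkx2-1, the homeodomain factor that patterns the medial ganglionic eminence, had the largest positive log2 fold change among the factors in N against control, without passing the test. It stood at 7.22, 8.96, 9.24, 7.16 and 7.58 CPM in the 5 CN libraries. In N mice its lowest, median and highest values were 6.59, 9.23 and 13.1 CPM, against 7.15, 8.19 and 9.36 CPM in control mice. Of 8 N libraries, 4 lay above every control and 1 below every control, so the groups overlapped. The log2 fold change was 0.23 in N against control (SE 0.113, 95% interval -0.0068 to 0.46) and did not pass, with an adjusted p = 0.544 by edgeR's quasi-likelihood test with Benjamini-Hochberg adjustment. In CN against control it was -0.026 (SE 0.129), or -0.065 without CN library 2. In CN against N it was -0.25 (SE 0.13, adjusted p = 0.445 by edgeR), or -0.29 without that library. The highest Nkx2-1 values came from N libraries 3 and 5, at 13.1 and 11.8 CPM, which also held the lowest Chat values, at 14.8 and 17.4 CPM. The next lowest Chat values were 18.5 CPM in CN library 2 and 18.7 CPM in N library 7. Nkx2-1 was at 8.96 and 8.18 CPM in those libraries. Beside this, the summed level of 7 hypothalamic markers was 0.888 to 1.91 CPM in CN mice, 1.3 to 4.33 CPM in N mice and 0.937 to 1.9 CPM in control mice, highest in N library 5. In N library 3, which held the most Nkx2-1, that sum was 1.76 CPM, inside the control range. In N library 8 it was 3.69 CPM, and Nkx2-1 was at 10.4 CPM, above every control. After subtraction of group means, Spearman's rho between Nkx2-1 and that sum over the 21 libraries was 0.478. This was its highest rho among the gene lists compared, and it was 0.4 without CN library 2. None of the 7 hypothalamic markers reached 1 CPM on average, Hcrt and Sim1 were under 0.1 CPM, and Sim1 was at 0 in every control. The part of such tissue in the Nkx2-1 values was not tested.

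Lhx6, which in mouse acts below Nkx2-1 in GABAergic interneurons, differed little between groups. Its values were 23.9, 22.3, 25.1, 18.6 and 22.2 CPM in CN libraries. In N mice the lowest, median and highest were 18.3, 20.7 and 24.4 CPM, against 18.0, 21.2 and 22.2 CPM in control mice. All 3 groups overlapped, although 3 of 5 CN and 3 of 8 N libraries exceeded every control. The log2 fold change was 0.097 in CN against control (SE 0.0781; 0.10 without CN library 2) and 0.025 in N against control (SE 0.0689, 95% interval -0.12 to 0.17). Neither passed, with adjusted p = 0.667 and 0.965 by edgeR.

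Lhx8, the LIM-homeodomain factor that directs precursors to the cholinergic fate, stood at 11.2, 10.1, 10.6, 8.43 and 7.2 CPM in CN libraries. In N mice the lowest, median and highest were 6.3, 9.09 and 9.85 CPM, against 6.75, 8.86 and 9.88 CPM in control mice. The N and control ranges thus almost coincided, and 3 of 5 CN libraries lay above every control. Its log2 fold change for N against control was -0.0083 (SE 0.107, 95% interval -0.23 to 0.21, adjusted p = 0.993 by edgeR). In CN against control it was 0.13 (SE 0.121, adjusted p = 0.695 by edgeR), which did not pass, and was 0.11 without CN library 2.

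Isl1, the LIM-homeodomain partner of Lhx8 in the cholinergic program, varied little among animals, with a coefficient of variation of 5.07% in CN, 4.14% in N and 7.95% in control mice. Isl1 is also expressed in the lineage of direct-pathway projection neurons during mouse development. Its level was 16.5, 16.2, 17.0, 18.0 and 15.8 CPM in CN libraries. In N mice the lowest, median and highest values were 15.7, 17.1 and 17.8 CPM, against 15.3, 18.1 and 18.9 CPM in control mice. No CN or N library lay outside the control range. The log2 fold change was -0.068 in CN against control (SE 0.0643, 95% interval -0.20 to 0.065; -0.054 without CN library 2) and -0.045 in N against control (SE 0.0564, 95% interval -0.16 to 0.072). With adjusted p = 0.705 and 0.898 by edgeR, neither passed, and these were the narrowest intervals among the factors.

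Gbx2, a homeodomain factor of developing cholinergic interneurons and of the thalamus, was near the limit of what these libraries measure, with 5 to 26 reads in CN, 6 to 27 in N and 10 to 23 in control libraries. It stood at 0.189, 0.776, 0.68, 0.646 and 0.222 CPM in CN libraries. In N mice the lowest, median and highest values were 0.195, 0.534 and 0.908 CPM, against 0.302, 0.61 and 0.807 CPM in control mice. The CN values fell into a low pair, CN libraries 1 and 5, and 3 values inside the control range. Its log2 fold change was -0.18 in CN against control (SE 0.344, 95% interval -0.89 to 0.53) and -0.0091 in N against control (SE 0.302, 95% interval -0.63 to 0.62). Without CN library 2, the highest of the CN values, the CN log2 fold change was -0.37 (SE 0.363). These intervals are wide, and changes within them in either direction are compatible with the values. Its exons share 946 bases with D130058E05Rik on the opposite strand. That gene held 227 reads over the 22 libraries against 358 for Gbx2, whose exons cover 2177 bases in all. No source used here states whether counting was stranded, so how reads from the shared bases were counted is not known.

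Zic1, a zinc-finger factor of the septal and dorsal midline lineages, was below the control mean in every CN library. So were 6 of 8 N and 5 of 8 control libraries. It stood at 20.5, 13.7, 21.1, 20.3 and 20.6 CPM in CN libraries. In N mice the lowest, median and highest values were 18.7, 22.2 and 34.4 CPM, against 20.6, 23.1 and 32.6 CPM in control mice. Of the 5 CN libraries, 3 lay below every control, but those at 20.5 and 20.3 CPM only just, and the groups overlapped. The log2 fold change in CN against control was -0.36 (SE 0.148, 95% interval -0.66 to -0.051, unadjusted p = 0.0241, adjusted p = 0.59 by edgeR) and did not pass. Without CN library 2 it was -0.25 (SE 0.149, adjusted p = 0.851 by edgeR). In CN against N it was -0.31 (SE 0.148, adjusted p = 0.418 by edgeR) and -0.20 without that library. For N against control it was -0.048 (SE 0.128, adjusted p = 0.963 by edgeR).

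The high Zic1 values were spread over groups. N libraries 5 and 6 held 30.0 and 34.4 CPM, and control libraries 3 and 7 held 29.5 and 32.6 CPM. Ttr, the leading choroid plexus transcript, was at 1540 and 3430 CPM in those N libraries, but at 349 and 27.0 CPM in those controls. The 4 thalamic markers each had a mean of 1 CPM or more over the 21 libraries, though not in every library. Their summed level was 17.9 to 23.2 CPM in CN mice, 19.9 to 34.5 CPM in N mice and 20.3 to 38.2 CPM in control mice. Its 38.2 CPM was in control library 3 and 30.5 CPM in control library 7. The sum was 34.5 CPM in N library 8, where Zic1 was at 24.1 CPM. It was 26 CPM in N library 6, which held the most Zic1. Across the 21 libraries, after subtraction of group means, Spearman's rho between Zic1 and that sum was 0.487, and 0.72 without CN library 2. This was the highest rho of Zic1 among the gene lists compared with it. With the sum of 4 septal markers rho was 0.248, and 0.403 without CN library 2. These points share libraries and scaling factors, and the part of neighbouring tissue in the Zic1 values was not tested.

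Zic4, whose RefSeq start lies 3.2 kb from that of Zic1 on the opposite strand, was at 2.72, 1.82, 2.1, 1.1 and 2.41 CPM in CN libraries. In N mice its lowest, median and highest values were 1.32, 2.26 and 3.81 CPM, against 1.63, 2.68 and 3.2 CPM in control mice. CN library 4 and N library 3 lay below every control and N library 6 above, so the groups overlapped. The log2 fold change was -0.37 in CN against control (SE 0.225, 95% interval -0.84 to 0.093; -0.34 without CN library 2) and -0.10 in N against control (SE 0.195, 95% interval -0.51 to 0.30). Neither passed, with adjusted p = 0.608 and 0.941 by edgeR. The exons of Zic4 and Zic1 share 60 bases, and Zic4 shares 468 bases with Gm37477, which held 90 reads in all against 1534 for Zic4. The summed level of 10 meningeal fibroblast markers was 22.1 to 41.0 CPM in CN mice, 22.3 to 38.0 CPM in N mice and 22.7 to 49.5 CPM in control mice. Its Spearman's rho with Zic4 over the 21 libraries was 0.592 after subtraction of group means and 0.74 without CN library 2. This was the highest rho of Zic4 among the gene lists compared with it. With the sum of 4 septal markers rho was 0.483, and 0.54 without CN library 2. For Zic1 the rho with the meningeal sum was 0.0948, and 0.359 without that library. The part of meninges or septum in the Zic4 values was not tested.

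**Figure D2:**
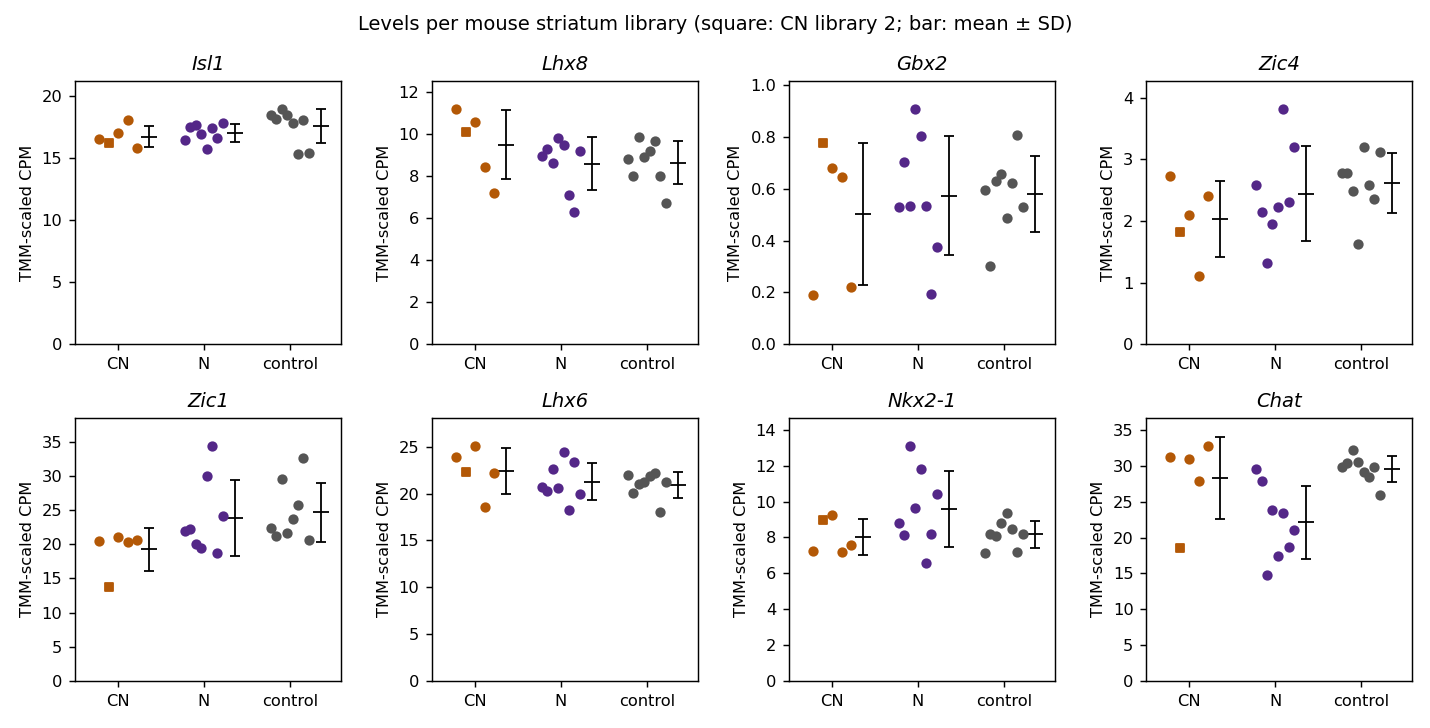
TMM-scaled CPM of each factor and of Chat in 5 CN, 8 N and 8 control libraries, each point a library, with the mean and SD as a bar and CN library 2 as a square. Isl1 and Lhx6 keep to a narrow band in all groups, Zic1 is low in CN library 2 at 13.7 CPM, and 6 of 8 N values of Chat lie below the lowest control value of 25.9 CPM.

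Chat was at 31.2, 18.5, 31.0, 27.9 and 32.8 CPM in CN libraries. In N mice the lowest, median and highest values were 14.8, 22.3 and 29.6 CPM, against 25.9, 29.9 and 32.2 CPM in control mice. Thus 6 of 8 N libraries lay below every control, whereas in CN mice this held for library 2 alone. Its log2 fold change in N against control was -0.42 (SE 0.123, 95% interval -0.67 to -0.16), which did not pass over all genes, with an adjusted p = 0.242 by edgeR and 0.0543 without CN library 2. In CN against N it was 0.35 (SE 0.139, adjusted p = 0.325 by edgeR), and 0.48 (adjusted p = 0.0782) without CN library 2. Other cholinergic effector genes were Slc18a3, the vesicular acetylcholine transporter, Slc5a7, the choline transporter, and Slc10a4, a protein of cholinergic vesicles. None of these 3 was called in N against control with all libraries, and all 3 were called lower without CN library 2, beside 0.667% of all genes. Their log2 fold changes hardly changed between the fits. The SEs were smaller without that library, which is in neither group compared but enters the shared fit. Slc18a3 was at -0.42 (SE 0.107, adjusted p = 0.216 by edgeR, 0.0353 without CN library 2) and Slc5a7 at -0.56 (SE 0.151, adjusted p = 0.218, 0.0396 without CN library 2). Slc10a4 was at -0.43 (SE 0.1, adjusted p = 0.162 by edgeR, 0.0316 without CN library 2). That these genes are lower in N mice was known when Chat was set beside the factors.

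Read together, 0 of the 7 factors passed in CN against control, where 0 of 19413 genes tested were called (0%) and 1623 had an unadjusted p under 0.05 (8.36%). In N against control the count was again 0 of 7, with 0 of 19413 called (0%) and 1822 at an unadjusted p under 0.05 (9.39%). In CN against N it was 0 of 7, with 0 of 19413 called (0%) and 2294 at an unadjusted p under 0.05 (11.8%). Without CN library 2, of 19653 genes, 0 (0%) were called in CN against control, 197 (1%) in N against control and 70 (0.356%) in CN against N, and 0 of the 7 factors were among them. The groups of each factor overlapped in every comparison. Groups without overlap were found for 0.268% of genes in CN against control, 0.211% in N against control and 0.531% in CN against N. Median log2 fold changes over the 7 factors were -0.068 in CN against control, -0.0091 in N against control and -0.17 in CN against N, beside medians of 8e-04, 0.0067 and 0 over all genes tested. The intervals bound what could have been missed. In N against control they lay wholly above Chat's estimate of -0.42 for Isl1, Lhx8, Zic1, Lhx6 and Nkx2-1, and included it for Gbx2 and Zic4. The Chat interval itself, -0.67 to -0.16, overlapped those of Lhx8, Gbx2, Zic4 and Zic1. It ended at -0.1628, next to the lower bound of Isl1 at -0.1617. Chat was set beside the factors with its lower N level known, so this comparison is a description, with no test.

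**Figure D3:**
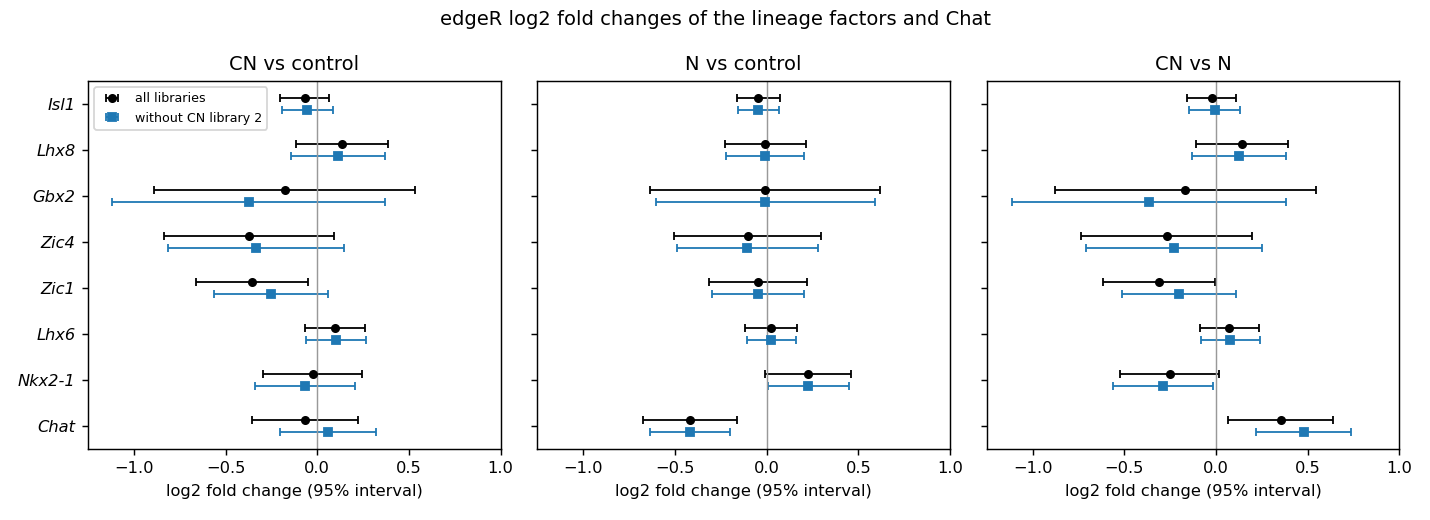
Log2 fold changes from edgeR with 95% intervals for the 7 factors and Chat in CN against control, N against control and CN against N, with all libraries as circles and without CN library 2 as squares. In N against control the Chat estimate of -0.42 lies outside the intervals of 5 factors, while the interval of Chat itself overlaps those of Lhx8, Gbx2, Zic4 and Zic1. Chat was set beside the factors with its lower N level known.

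Since each library holds both a factor and Chat, the log2 ratio of their CPM (prior count 0.5) was compared between groups. In N mice it contains the lower Chat level for which Chat was set beside the factors, so the N ratios are given as a description, with no test. The Isl1 ratio was -0.35 ± 0.343 in N mice and -0.75 ± 0.0618 in control mice (SD, n = 8 each), a difference of 0.41, and 7 of 8 N libraries lay above every control. The Lhx8 ratio differed by 0.43, with 4 of 8 N libraries above every control. The Lhx6 ratio differed by 0.47 and that of Nkx2-1 by 0.65, with 5 of 8 N libraries above every control for each. Differences were 0.39 for Zic1, 0.36 for Gbx2 and 0.32 for Zic4. Beside these values, Chat's own log2 fold change was -0.42.

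In CN mice, where 7 exact tests were made with unadjusted p-values, the ratio to Chat differed from controls past 0.05 for Zic1 alone among the 7 factors with all libraries. It was -0.54 ± 0.101 in CN mice and -0.28 ± 0.217 in control mice (SD, n = 5 and 8), a difference of -0.27 (p = 0.0249, exact permutation test). Without CN library 2 the difference was -0.29 (p = 0.0263, exact permutation test), and Chat and Zic1 were both low in that library. It did not pass without CN library 1 (-0.25) or CN library 5 (-0.23), nor without CN libraries 1 and 2 (-0.28, p = 0.0667, exact permutation test). The other 6 factors had differences of -0.31 to 0.22 with p of 0.212 or more in exact permutation tests.

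**Figure D4:**
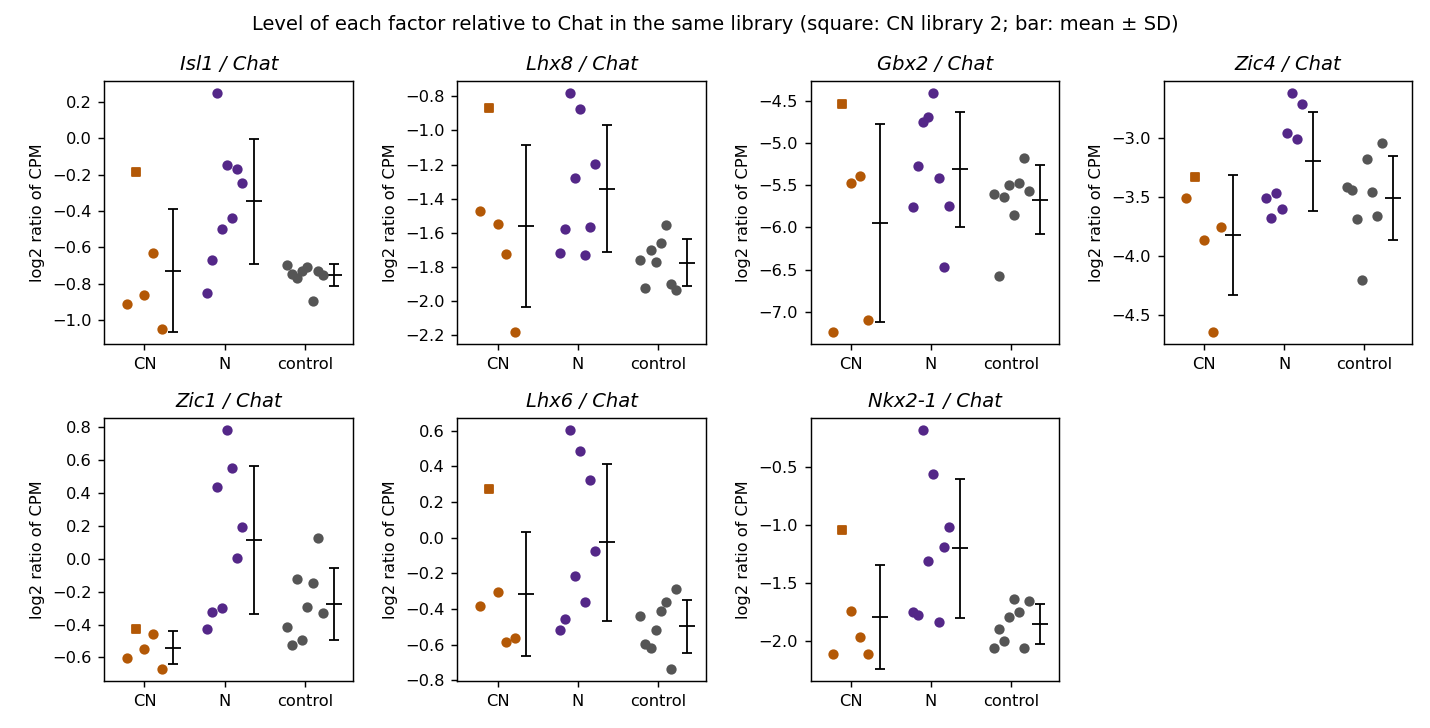
Log2 ratio of the CPM of each factor to that of Chat in the same library for 5 CN, 8 N and 8 control libraries, with mean and SD as a bar and CN library 2 as a square. The N ratios of Isl1 lie above every control in 7 of 8 libraries. The CN ratios of Zic1 lie below every control in 3 of 5 libraries, and the others lie inside the control range.

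After subtraction of group means, Spearman's rho over the 21 libraries between Chat and a factor was 0.335 for Zic1, 0.234 for Zic4, 0.219 for Lhx8, 0.113 for Isl1, -0.283 for Lhx6 and -0.425 for Nkx2-1. Gbx2 was left out of these values because its mean is under 1 CPM. Without CN library 2 they were 0.0827 for Zic1, 0.15 for Zic4, 0.247 for Lhx8, 0.155 for Isl1, -0.462 for Lhx6 and -0.409 for Nkx2-1, so that the value of Zic1 rests on that library. Between Chat and the summed level of the 9 striatal projection neuron markers, rho was 0.503, and 0.732 without CN library 2. The part of a wider change in striatal neurons in the Chat values was not tested. Between these 6 factors, the 15 pairs ran from -0.377 for Isl1 with Lhx6 to 0.445 for Lhx6 with Nkx2-1, with a median of -0.031. All these points share libraries, scaling and depth, and the values are given as a description.

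**Figure D5:**
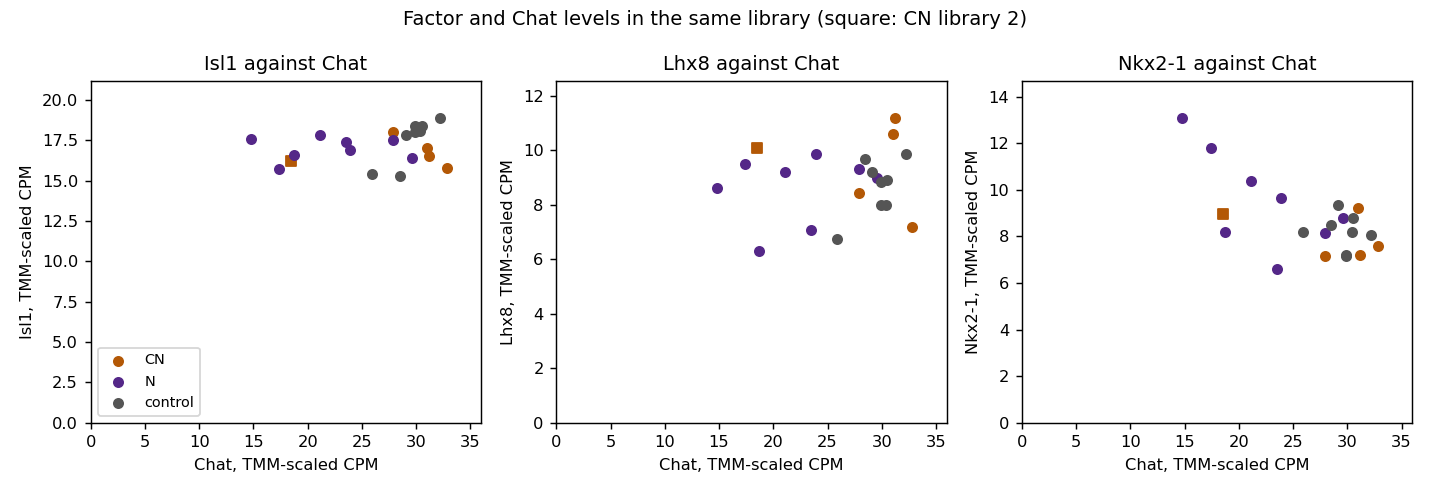
TMM-scaled CPM of Isl1, Lhx8 and Nkx2-1 against that of Chat in the same library, each point a mouse library, with CN library 2 as a square. Isl1 stays between 15.3 and 18.9 CPM over the whole range of Chat, and the N libraries with the least Chat, at 14.8 and 17.4 CPM, hold the most Nkx2-1. CN library 2, next lowest in Chat at 18.5 CPM, holds 8.96 CPM of Nkx2-1.

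Genes whose pattern was most like that of a factor were ranked by the same Spearman's rho over 21 libraries among 13547 genes at 1 CPM or more. Tardbp (0.801), Taf1d (0.753) and Nsmaf (0.751) led for Isl1, and Tma16 (0.801), Robo4 (0.706) and Spats2l (0.69) for Lhx8. Map2k4 (0.84), Epha5 (0.768) and Chac1 (0.727) led for Lhx6, and Fbxo2 (0.775), Sparc (0.771) and Cmbl (0.747) for Nkx2-1. For Zic1 they were Fzd4 (0.795), Agtrap (0.794) and Plch1 (0.773), and for Zic4 Arid3a (0.735), Map4k4 (0.706) and Plau (0.694). For Chat, Ric8b (0.873) led and the choline transporter gene Slc5a7 was among the 5 leading genes at 0.834 (0.753 without CN library 2), whereas no factor was among the 5 leading genes of another factor. The best of 13547 genes is high by the choice itself, and without CN library 2 the 35 values ranged from 0.522 to 0.832. Without subtraction of group means they ranged from 0.356 to 0.892, and Robo4 was at 0.356 for Lhx8 and Map2k4 at 0.395 for Lhx6.

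Other regulators of the same lineages give the setting. Of 16 paralogs of the factors, 7 passed the filter on low counts and 0 of them were called in CN against control, N against control or CN against N, as were 0% of all genes tested with all libraries. In N against control their median log2 fold change was 0.054, with Gbx1, the paralog of Gbx2, at 0.33 (SE 0.185). Gbx1 was at 4.63 ± 2.02 CPM in CN mice, 4.93 ± 0.963 CPM in N mice and 3.92 ± 0.873 CPM in control mice (SD). Isl2 was nearly silent, at 0 to 0.0927 CPM in CN mice, 0 to 0.153 CPM in N mice and 0 to 0.0622 CPM in control mice. LIM-domain cofactors were listed without sorting those that aid Isl1, Lhx6 and Lhx8 from those that oppose them. Of these 10 genes, 0 were called in any comparison, as were 0% of all genes. Their median log2 fold change was 0.135 in CN against control, 0.052 without CN library 2, and 0.020 in N against control. Ldb1, the adaptor that joins LIM-homeodomain proteins, was at 0.030 (SE 0.062) in N against control and 0.12 (SE 0.0704) in CN against control. In N against control Lmo2 was at -0.20 (SE 0.113) and Ssbp2, a partner of Ldb1, at 0.070 (SE 0.0445).

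Of 17 transcription factors of interneuron lineages, 0 were called in N against control with all libraries. Without CN library 2, 2 were called higher, beside 0.336% of all genes. Dlx1, which acts in newborn GABAergic neurons of the ventral forebrain, was at 31.4 ± 6.36 CPM in N mice and 20.7 ± 2.82 CPM in control mice (SD, n = 8 each). It differed by 0.60 on the log2 scale, with SE 0.123 and an adjusted p = 0.0881 by edgeR (0.037 without CN library 2). Sp8, which marks neuroblasts of the olfactory bulb lineage, was at 4.74 ± 2.81 CPM in N mice and 1.92 ± 0.261 CPM in control mice, with a log2 fold change of 1.29 (SE 0.281, adjusted p = 0.107 by edgeR, 0.0446 without CN library 2). Markers of neuroblasts and proliferation had higher N means too, with positive log2 fold changes for 6 of 6 in N against control and a median of 0.53. With all libraries 0 of them were called, beside 0% of all genes. Without CN library 2, 1 was called higher, beside 0.336% of all genes. Their summed level was 86.6 to 154 CPM in CN mice, 113 to 219 CPM in N mice and 93.1 to 116 CPM in control mice, and their part in the Dlx1 and Sp8 values was not tested. The median log2 fold change of the interneuron list was 0.14 in N against control and 0.039 in CN against control. Of 13 factors of striatal projection neurons, 0 were called in any comparison, as were 0% of all genes, with a median of -0.056 in N against control. Among them Rxrg, a retinoid X receptor gene, was at -0.31 (SE 0.0975) and Sox8 at -0.15 (SE 0.0586) in N against control. Rxrg was at 0.56 in CN against N (SE 0.11, adjusted p = 0.0641 by edgeR, 0.0542 without CN library 2).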

How the data were processed

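The authors deposited raw counts of reads per gene, in 1 table per species, of which the mouse table was used and the rat table was not used here. The submitters' processing notes name STAR, featureCounts and edgeR without versions, and list the human build GRCh38, although the mouse table carries mouse identifiers. No source used here states the annotation release or the strand setting. Symbols matched 54409 of 54532 genes.

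All 21 mouse libraries with a stated injection entered a single edgeR quasi-likelihood fit on the deposited counts (edgeR 4.0.16, limma 3.58.1, R 4.3.3) with TMM scaling, filterByExpr and robust dispersion. The threshold was an adjusted p under 0.05 (Benjamini-Hochberg, over all genes tested). Intervals of 95% use the quasi-likelihood degrees of freedom. Ratios to Chat were compared between CN and control mice with exact permutation tests over libraries. Exon lengths are unions of GENCODE mouse exons on GRCm38, and promoter windows are from RefSeq on GRCm38.p6, where every factor and Chat was matched by symbol. The fit was tested on simulated counts.

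The factors, the gene lists, the use of Chat as reference and the fits without CN library 2 or by Ambn class were chosen with earlier results of these data known. Named are the factors, Chat, the 2 genes of smallest p in N against control per list described, the genes called in it, and 3 of the 5 genes most like each factor. A few genes taken by that rule are not reported here. Ldb1, Isl2, Ppp1r1b, Ttr and the hypothalamic markers were named outside that rule, after their values were seen. By the labels each column is 1 animal. Within a group, even the 2 most alike libraries differed by 5.91 times what sampling noise gives (chi-square divided by its degrees of freedom), so none was counted as a duplicate. Alternatives were RLE scaling, no filter, DESeq2 1.42.0, limma-voom, leaving out libraries, fits of both groups compared only, and the class of a library by Ambn, an enamel matrix gene, at 0.5 CPM. Totals of 24.9 to 35.6 M (mega) counts limit precision mainly for Gbx2 and Zic4.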

Additional observations from a re-analysis of the deposited data

Results flagged for a closer look

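Zic1 in CN library 2, at 13.7 CPM, stood apart from the other 4 CN libraries, which lay between 20.3 and 21.1 CPM. The gap was 0.893 of the range of the group, above Dixon's critical value of 0.71 for 5 samples. It was the only such value among the 24 groups of libraries examined (7 factors and Chat in CN, N and control mice), and chance alone marks about 1 in 20 groups. The same library stood apart in its correlation with exon length, at -0.528. It was also lowest in Taf1, at 50.6 CPM, and the lowest CN library in Chat, at 18.5 CPM. No cause of the low Zic1 value was tested.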

How the results depend on the processing

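No factor was called in any of the 30 settings of the model (0 of 630 values), and the smallest adjusted p by edgeR was 0.205, for Zic1 in CN against control without CN library 1. Most directions of the factors are within error of 0, and signs near 0 turned with the setting; causes were not tested. Leaving out CN libraries 1 and 2 gave Chat 0.0481 in CN against control. The Ambn class as a covariate gave Nkx2-1 0.0057 in CN against control. Only libraries with Ambn below 0.5 CPM, which leaves 1 CN library assumed to vary like the others, gave 0.0742 for Gbx2, 0.1338 for Nkx2-1 and 0.06 for Chat in CN against control, 0.0262 for Lhx8 and 0.0546 for Zic4 in N against control, and 0.108 for Gbx2 in CN against N.

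With a library left out in turn, log2 fold changes in CN against control ran from -0.3736 to 0.0192 for Gbx2, -0.0766 to 0.0139 for Nkx2-1 and -0.1237 to 0.0587 for Chat. In N against control they ran from -0.0574 to 0.044 for Lhx8, -0.1397 to 0.121 for Gbx2, -0.1434 to 0.0177 for Zic1 and -0.0065 to 0.0511 for Lhx6, and in CN against N from -0.3649 to 0.0288 for Gbx2. Ratios to Chat in CN against control ran from -0.1107 to 0.1055 for Isl1, 0.0433 to 0.3717 for Lhx8 (the highest, without CN library 5, at p = 0.0121 in an exact permutation test), -0.6291 to 0.0461 for Gbx2, -0.1259 to 0.1411 for Nkx2-1 and -0.3009 to -0.2085 for Zic1, and in N against control from 0.294 to 0.4671 for Zic1. Without CN libraries 1 and 2 they were -0.0939 for Isl1, -0.044 for Lhx8, -0.0837 for Nkx2-1 and -0.2839 for Zic1 (p = 0.0667, exact permutation test).

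Counts of called genes depended on the setting more than the factors did. Leaving out a library gave 0 to 1 genes in CN against control, 0 to 197 in N against control (32 without N library 1, 11 without CN library 1) and 0 to 70 in CN against N (23 without N library 1). DESeq2 called 75 genes in N against control and 161 in CN against N. Without CN libraries 1 and 2 there were 300 and 4, a fit of N and control libraries alone called 209, and no filter on low counts gave 8 in CN against N. No paired analysis was possible because replicate numbers were given in the order of the records and pair no animals.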

Other observations

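The mouse whose label names no injection had Nkx2-1 at 4.96 CPM, below the control range of 7.15 to 9.36 CPM and below every CN and N library. The other 6 factors and Chat lay within the control range in that mouse, with Isl1 at 18.2 CPM, Lhx8 at 7.26 CPM and Chat at 31.1 CPM.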
